A study of Mus musculus with 7 samples.

Results

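The potassium channel genes of the optic nerve were described as the protein coding genes whose symbol starts with Kcn and that reached 0.5 FPKM (a read count scaled for transcript length and library size) in at least 3 of 7 samples. This rule took 53 of 94 such genes in the deposited table. The comparison behind every value was between optic nerves of control (CT) and conditional mutant (cMU) mice at postnatal day 14 (P14), with 4 control samples and 3 mutant samples, each made of both nerves of 1 mouse. By their labels, all mice were homozygous for a floxed allele of Fasn, the gene of fatty acid synthase, which came from 129X1/SvJ stock and had been backcrossed to C57Bl/6 for at least 3 generations. Controls (Fasn lox/lox) lacked Cre, whereas mutants carried Cre recombinase under the Olig2 promoter as well. Olig2 marks the oligodendrocyte (OL) lineage, and it is also active in the progenitors of motoneurons and of some astrocytes, so recombination need not be limited to OLs. The nerve contains the axons of retinal ganglion cells but not their cell bodies, beside OLs, OL progenitors (OPCs), astrocytes, microglia, vessels and meninges. In such bulk tissue, fewer cells of a type and less RNA per cell cannot be told apart.

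Potassium channels are membrane pores that let potassium pass along its gradient, which sets the resting potential and ends action potentials. Inward rectifiers (Kir, the Kcnj genes) and tandem pore domain channels (K2P, the Kcnk genes) conduct at rest, voltage-gated channels (Kv, among them the Kcna, Kcnc, Kcnd, Kcnh and Kcnq genes) open on depolarization, and a further family opens on intracellular calcium or sodium. Auxiliary subunits such as the Kcnab, Kcne and Kcnip proteins form no pore but change how the pore opens or where it sits. In white matter, Kv1 channels lie along the axon beside the nodes of Ranvier, and Kir4.1 of astrocytes and OLs takes up the potassium that active axons release.

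What the pore genes share beyond their names is the selectivity filter, the short stretch that lines the narrowest point of the pore. The coding sequence around it is shown for 5 of the more abundant genes, because the signature was found in every pore gene and in no auxiliary gene of the 53. The sequences run 5′ to 3′ on the coding strand of GRCm38, and the 15 capitals are the codons of the filter signature (threonine or serine, any residue, glycine, then tyrosine, phenylalanine or leucine, and glycine). For Kcnk2, the second of its 2 filters is given.
Kcnj10: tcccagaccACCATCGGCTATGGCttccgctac
Kcnj13: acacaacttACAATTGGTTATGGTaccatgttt
Kcnk2: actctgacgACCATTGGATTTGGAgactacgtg
Kcna1: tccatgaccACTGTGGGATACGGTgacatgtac
Kcnt1: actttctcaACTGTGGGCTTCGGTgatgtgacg
These stretches lie in coding exons at chr1:172369293-172369325 (Kcnj10, plus strand), chr1:87389012-87389044 (Kcnj13, minus strand), chr1:189256572-189256604 (Kcnk2, minus strand), chr6:126642219-126642251 (Kcna1, minus strand) and chr2:25894358-25894390 (Kcnt1, plus strand). Kcnj10 shared 20 of 33 bases with Kcna1, 18 with this stretch of Kcnk2, 16 with Kcnj13 of its own family and 11 with Kcnt1. Of the 15 filter bases it shared 11 with Kcnj13 and with Kcnk2 and 9 with Kcna1 and with Kcnt1. In the translated coding sequences of the GENCODE annotation, all 9 Kir genes held 1 match to the signature, all 8 K2P genes held 2, and all 7 calcium or sodium activated genes held 1. Of the 18 Kv genes, 16 held 1 match and 2 (Kcna6 and Kcnh2) held 2. None of the 11 auxiliary genes held a match, and 5.32% of all 21785 coding genes held at least 1. A match is a description of the letters and not a functional site.

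The libraries held between 27452222 and 43462575 estimated counts, as worked back from the normalized counts. Fasn had an FPKM of 169.1 to 228.3 in the controls and of 49.0 to 69.3 in the mutants (log2 fold change -1.86, SE 0.14, adjusted p = 0.00312, limma-trend), so the labels and the targeted transcript went together. Markers of other cells moved with genotype or with single samples. Summed FPKM over 8 astrocyte markers was 2841 to 3224 in controls and 3623 to 4465 in mutants, with 3 of 8 past the threshold, and over 6 OPC markers it was 198.6 to 211.4 and 143.0 to 168.4, with 3 of 6 past it in the lower direction. Over 6 endothelial markers it was 101.1 to 123.4 and 131.2 to 148.2, with none past the threshold. For 8 OL markers it was 55040 to 62760 and 39890 to 51200, with 2 of 8 lower. Mutant 1 had the highest level of all 8 meningeal fibroblast markers (sum 2310, controls 751.9 to 1352) and of 4 of 5 choroid plexus markers, with Ttr at 14.1 FPKM there and at most 0.475 FPKM in the other samples. Mutant 3 had the highest level of all 8 neuron markers (sum 71.9, controls 36.3 to 45.7), and mutant 2 of 5 of 6 skeletal muscle markers (sum 40.9, at most 3.25 elsewhere). Genes of the Y chromosome were high in control 3, control 4 and mutant 3, while the labels used here give no sex. The part of these differences in any result on the potassium channel genes was not tested, except where a value is given beside it.

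None of the 53 genes passed an adjusted p of 0.05 (limma-trend, Benjamini-Hochberg over all 13866 tested genes, of which 2.62% passed). At an unadjusted p under 0.05 there were 13 of 53 genes, and voom on the estimated counts also gave 13 at that level and 0 past the adjusted threshold. Of the 13, 7 lay higher in mutants (13.2% of the genes, against 15.9% of all tested genes) and 6 lay lower (11.3% against 8.5%). In 9 genes the ranges of the genotypes did not overlap. Of these, 5 lay higher in mutants (9.43%, against 12.9% of all tested genes) and 4 lay lower (7.55%, against 8.26%). The shares of the potassium channel genes were thus close to those of all genes. The fitted log2 fold change was above 0 for 37 genes and below 0 for 16. Signs over all tested genes were not counted, so this split is not read as particular to the potassium channel genes. Their median log2 fold change was 0.16 against 0.05 over all tested genes. Without mutant 3 the median was 0.05.

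**Figure D1:**
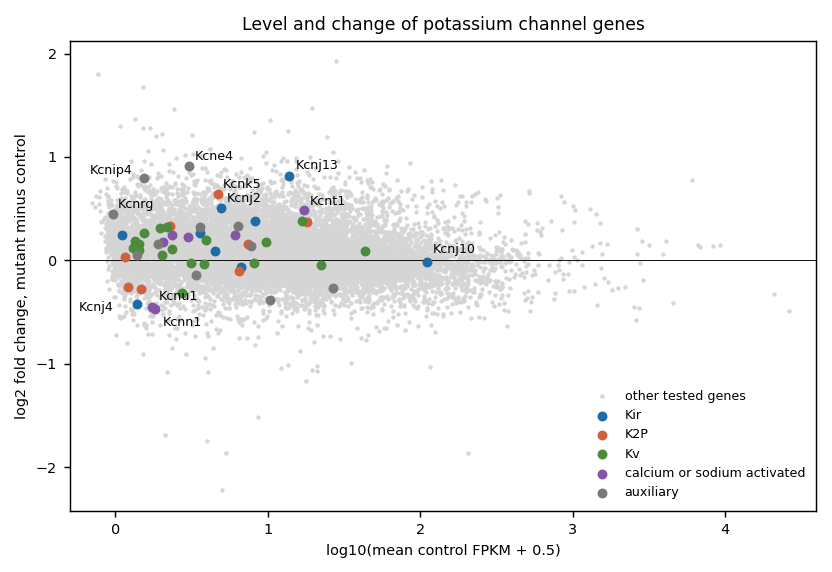
Log2 fold change between mutant and control (vertical axis) against the log10 of the mean control FPKM plus 0.5 (horizontal axis) for all 13866 tested genes in grey and the 53 potassium channel genes in colour by family. The coloured points lie within the cloud of all genes, from -0.47 (Kcnn1) to 0.92 (Kcne4), and Kcnj10 is the furthest right of the coloured points.

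A fit with the replicate number as a block was run beside this one, since samples of the same number tended to deviate together (r of 0.168, 0.409 and 0.27). For number 1 this was less than for control 4 with mutant 1 (0.205). Samples of the same number were also alike in their Y-linked level, so the block cannot be told apart from that level. Control 4 has no partner of its number and adds nothing to the genotype difference of the block fit. With the replicate block, 8.36% of all tested genes passed the threshold, 890 as higher and 269 as lower. Of the 53 potassium channel genes a share close to that passed, namely 4, all higher in mutants. These were Kcnj13 (log2 fold change 0.86, adjusted p = 0.0235), Kcne4 (0.93, adjusted p = 0.0351), Kcnk2 (0.38, adjusted p = 0.0382) and Kcnj2 (0.46, adjusted p = 0.0495), where the fit without the block gave adjusted p of 0.0662, 0.242, 0.116 and 0.306. Kcnab2 lay just outside, with an adjusted p of 0.0519 under the block.

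Levels in control nerves spanned a wide range. FPKM is scaled for transcript length, so levels can be set side by side between genes. The mean control FPKM was under 2 for 23 of 53 genes and above 10 for 8, with a median of 2.61. Kcnj10 stood first with 107.8 to 114.4 FPKM and made up 26.5% to 27.9% of the summed FPKM of all 53 genes in the controls. Kcna1 followed with 38.0 to 47.3, Kcnip3 with 23.2 to 27.9 and Kcna6 with 20.8 to 22.6, and the ranges of these 4 genes did not overlap. Kcnk2 (15.0 to 19.6), Kcnt1 (13.4 to 18.5), Kcnq3 (13.9 to 19.3) and Kcnj13 (11.2 to 14.6) formed a run in which each overlapped the next. Kcnab2 (8.80 to 10.9) and Kcnd3 (8.94 to 9.33) came after them and overlapped each other. Summed by family, the Kir genes had 147.2 to 157.8 FPKM in the controls, the Kv genes 114.5 to 127.7, the auxiliary genes 55.2 to 66.1, the K2P genes 34.7 to 42.2 and the calcium or sodium activated genes 27.6 to 34.7.

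**Figure D2:**
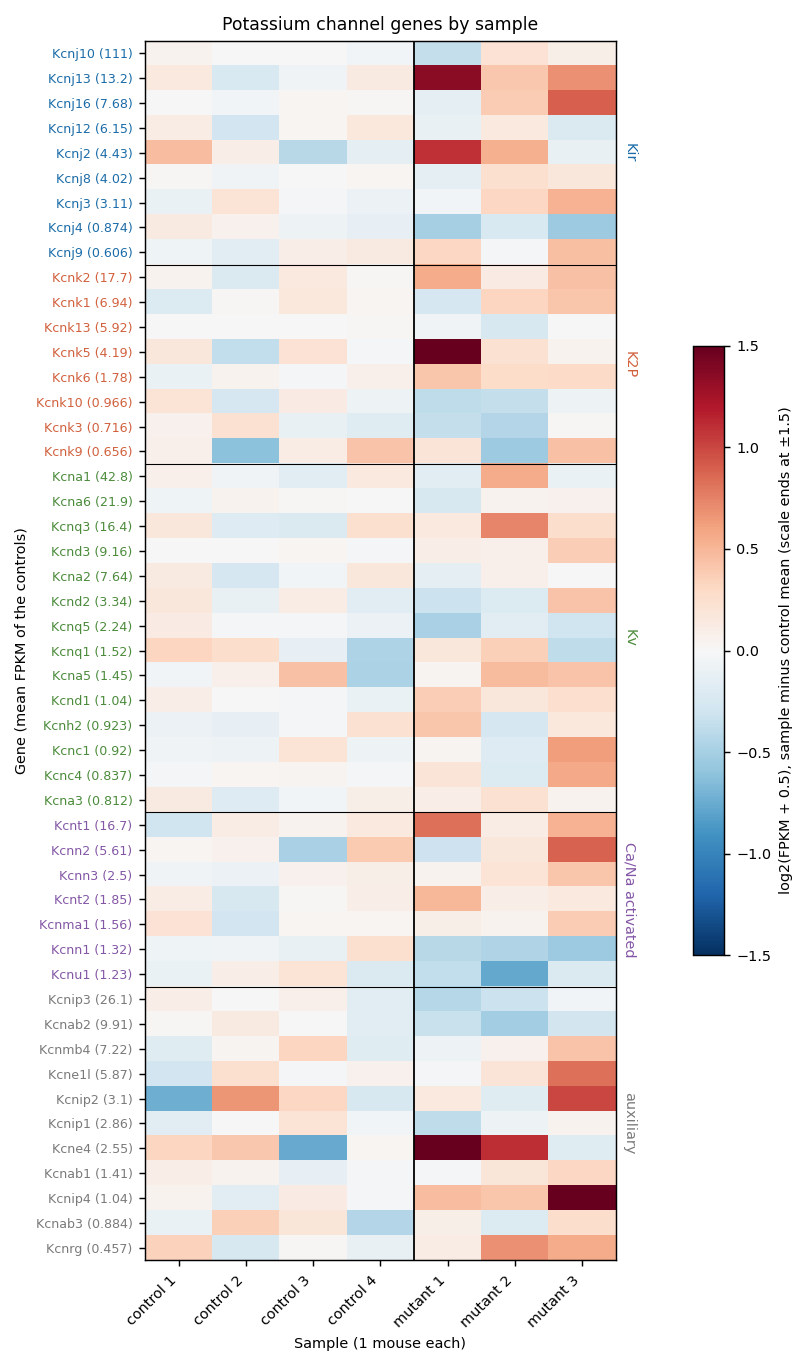
Level of 49 of the 53 potassium channel genes (rows, by family and falling control mean, which is given in brackets as FPKM) in the 7 samples (columns), as log2(FPKM + 0.5) minus the mean of the controls, with the colour scale ending at 1.5 either way. The darkest cells lie in mutant columns, among them Kcnj13, Kcnk5, Kcne4 and Kcnj2 in mutant 1 and Kcnip4 and Kcnip2 in mutant 3.

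Among the Kir genes, the abundant glial channel had the same mean in both genotypes but spread wider among mutants, and Kcnj13 had the lowest adjusted p of all 53 genes. Kcnj10 encodes Kir4.1, the main potassium uptake channel of astrocytes and OLs, at chr1:172341210-172374085 on the plus strand. Its FPKM was 114.4, 110.1, 110.4 and 107.8 in controls 1 to 4 and 86.0, 128.2 and 117.8 in mutants 1 to 3. The mutants lay on both sides of the narrow control range, mutant 1 below it and the other two above it. The means were 110.7 ± 2.74 (SD, n = 4) and 110.7 ± 21.96 (SD, n = 3), and the 95% interval of the log2 fold change was -0.29 to 0.25 (adjusted p = 0.940).

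Kcnj16 encodes Kir5.1, which forms channels together with Kir4.1. Its FPKM was 7.66, 7.46, 7.86 and 7.75 in the controls and 6.95, 10.2 and 14.8 in the mutants. As for Kcnj10, mutant 1 was below and the other mutants above every control, although mutant 3 stood out further. It differed by a log2 fold change of 0.38 with an interval of -0.07 to 0.83 (adjusted p = 0.271), and it was 0.12 without mutant 3. The ratio of Kcnj10 to Kcnj16 FPKM was 13.9 to 14.9 in the controls and 12.4, 12.6 and 7.98 in the mutants, so the mutants had the 3 lowest ratios.

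Kcnj13 encodes Kir7.1, known from transporting epithelia such as the choroid plexus and the retinal pigment epithelium. Its FPKM was 14.6, 11.2, 12.7 and 14.4 in the controls and 34.4, 17.6 and 21.4 in the mutants. All 3 mutants were above all 4 controls, with mutant 1 the highest. The log2 fold change was 0.82 (SE 0.20, interval 0.36 to 1.27), a fold of 1.76, with an adjusted p of 0.0662. The exact permutation test gave 0.0571, the smallest two-sided p that 4 against 3 samples allow. Every gene whose genotypes do not overlap reaches that p, so it adds nothing to the separation of the ranges. Without mutant 1, the sample high in choroid plexus and meningeal markers, the log2 fold change was 0.55. The summed FPKM of 10 markers of the retinal pigment epithelium and choroid was 4.84 to 7.73 in the controls and 6.14 to 8.59 in the mutants, highest in mutant 3, and 6 of the 10 were under 0.5 FPKM in every sample. The part of these cells and of the choroid plexus in the Kcnj13 level was not tested. Kcnj13 lies within Gigyf2 on the opposite strand and shares 623 exonic bases with it. Gigyf2 itself had a log2 fold change of 0.11 (adjusted p = 0.399). Exonic bases on opposite strands were also shared by Kcna6 (2355 with Gm26673), Kcnk2 (604 with A430027H14Rik) and Kcnd3 (165 with Kcnd3os), and by 19 of the 53 genes in all. The sources used here do not say whether counting used the strand, so for these genes reads of the pair may not have been told apart.

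The other Kir genes were less abundant. Kcnj2 (Kir2.1, a strong rectifier that holds the resting potential) had 6.12, 4.63, 3.11 and 3.86 FPKM in the controls and 9.81, 6.46 and 3.95 in the mutants, with mutant 3 inside the control range. Kcnj4, which encodes the related Kir2.3, had 0.999, 0.937, 0.803 and 0.758 FPKM in the controls and 0.469, 0.674 and 0.441 in the mutants. All Kcnj4 values of the mutants were below those of the controls, on 26 to 93 estimated counts per sample (log2 fold change -0.42, interval -0.74 to -0.10, adjusted p = 0.123). Kcnj8 (Kir6.1, a pore of the ATP-sensitive channels of vessels), Kcnj3, Kcnj9 and Kcnj12 had log2 fold changes from -0.06 to 0.26, and their ranges overlapped.

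**Figure D3:**
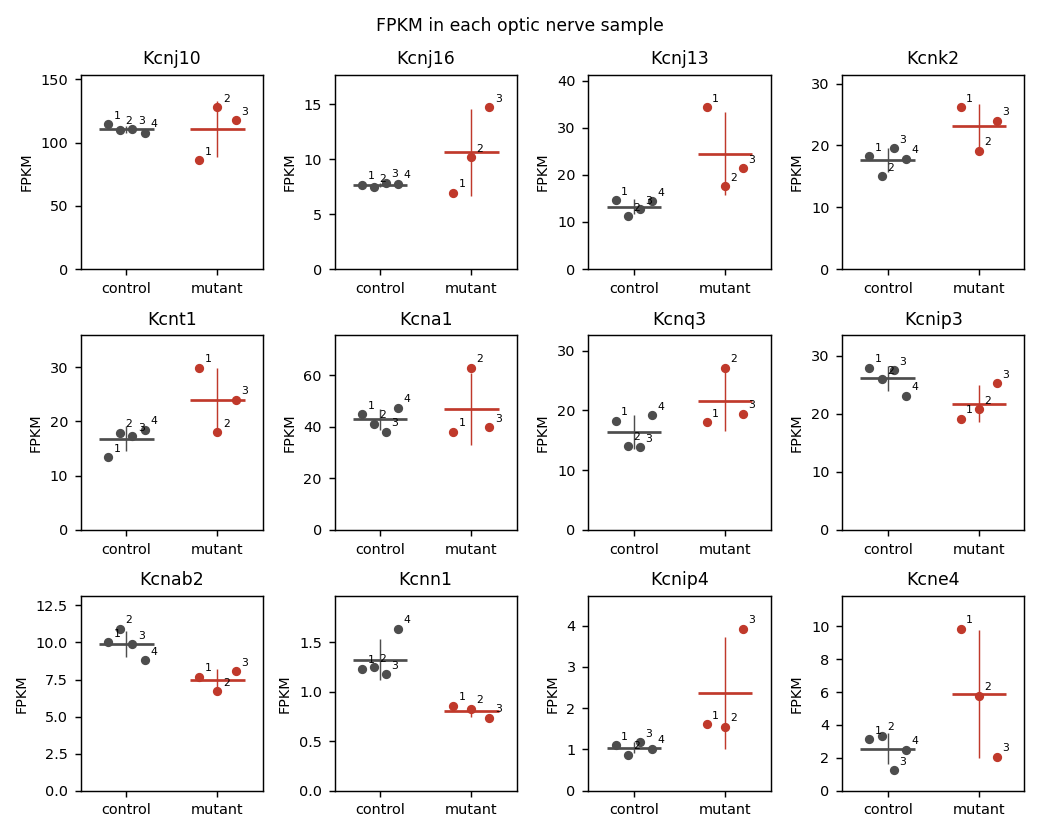
FPKM in each sample (points, numbered by replicate) for 12 potassium channel genes, with the mean (horizontal line) and SD (vertical line) of the 4 control and 3 mutant samples. Kcnj13 and Kcnip4 are higher in every mutant and Kcnab2 and Kcnn1 lower in every mutant, whereas Kcnj10 has mutants above and below the controls.

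The K2P genes carry the background leak of potassium. Kcnk2, the TREK-1 channel that responds to stretch and lipids, was the most abundant of them. Its FPKM was 18.3, 15.0, 19.6 and 17.9 in the controls and 26.2, 19.2 and 24.0 in the mutants, so that mutant 2 alone fell into the control range. Between genotypes the log2 fold change was 0.37 (SE 0.12, interval 0.10 to 0.65, adjusted p = 0.116), and without mutant 2 it was 0.50 (adjusted p = 0.0428). That was the upper end over samples left out in turn. The range was 0.28 to 0.50, with an adjusted p (limma-trend) of 0.0428 to 0.276. Leaving out mutant 2 raised the calls over all genes as well, from 175 to 565 higher and from 188 to 344 lower.

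Kcnk6, the TWIK-2 channel, had 1.61, 1.86, 1.73 and 1.90 FPKM in the controls and 2.54, 2.26 and 2.28 in the mutants. The genotypes did not overlap, and the log2 fold change was 0.33 (SE 0.11, adjusted p = 0.112). Kcnk5, the TASK-2 channel that opens in alkaline medium, had 4.71, 3.09, 4.86 and 4.08 FPKM in the controls and 14.1, 4.93 and 4.31 in the mutants. The difference rested on mutant 1, since the log2 fold change was 0.64 with it and 0.14 without it. Kcnk13, the THIK-1 channel of microglia, varied little, with 5.87 to 6.01 FPKM in the controls and 4.94 to 5.91 in the mutants. Kcnk1 had 5.92 to 7.77 FPKM in the controls and 5.73 to 9.37 in the mutants, and Kcnk3, Kcnk9 and Kcnk10 had mean control levels under 1 FPKM.

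In the 18 Kv genes the log2 fold changes were small, from -0.32 to 0.38, and 3 genes (16.7%) did not overlap between genotypes, against 21.1% of all tested genes. Kcna1 encodes Kv1.1, the main channel of the axon beside the node. It had 44.9, 41.1, 38.0 and 47.3 FPKM in the controls and 38.0, 62.8 and 39.8 in the mutants. Mutants 1 and 3 lay at the low end of the controls and mutant 2 above them all, and the interval of the log2 fold change was -0.28 to 0.47 (adjusted p = 0.758). Kcna6 (Kv1.6) had 20.8 to 22.6 FPKM in the controls and 18.4 to 22.8 in the mutants, and Kcna2 (Kv1.2), the usual partner of Kv1.1 on axons, 6.30 to 8.56 and 6.85 to 8.04. For these genes the intervals were -0.24 to 0.15 and -0.28 to 0.24.

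Kcnq3 encodes a subunit of the M-type channel that dampens repetitive firing. Kcnq3 had 18.3, 14.1, 13.9 and 19.3 FPKM in the controls and 18.0, 27.2 and 19.5 in the mutants, with mutant 2 well above the rest (log2 fold change 0.38, interval 0.01 to 0.75, adjusted p = 0.198). Kcnq5, a further M-type gene, had 2.47, 2.20, 2.21 and 2.08 FPKM in the controls and 1.45, 1.95 and 1.73 in the mutants. All mutants were below all controls, with a log2 fold change of -0.32 (SE 0.12, adjusted p = 0.149).

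The Kcnd genes encode the Kv4 channels of the fast transient current. Kcnd3 (Kv4.3) had 9.22, 9.14, 9.33 and 8.94 FPKM in the controls and 9.89, 9.64 and 11.9 in the mutants, and Kcnd1 (Kv4.1) had 1.15, 1.05, 1.02 and 0.936 in the controls and 1.49, 1.22 and 1.34 in the mutants. Neither overlapped between genotypes, by narrow margins. Fitted log2 fold changes were 0.18 (SE 0.09, adjusted p = 0.242) for Kcnd3, and 0.09 without mutant 3, and 0.26 (SE 0.12, adjusted p = 0.208) for Kcnd1. Kcnd2 (Kv4.2) had 2.88 to 3.81 FPKM in the controls and 2.55 to 4.66 in the mutants. Kcna3, Kcna5, Kcnc1, Kcnc4, Kcnh2 and Kcnq1 had mean control levels between 0.812 and 1.52 FPKM.

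Of the genes opened by calcium or sodium, Kcnt1 was the most abundant. It encodes the sodium-activated channel Slack. Its FPKM was 13.4, 17.9, 17.2 and 18.5 in the controls and 29.9, 18.0 and 24.0 in the mutants, and mutant 2 again lay within the control range. Its log2 fold change was 0.49 (SE 0.17, interval 0.10 to 0.87, adjusted p = 0.131), and it was 0.67 (adjusted p = 0.0417) without mutant 2. That was the upper end over samples left out in turn. The range was 0.31 to 0.67, with an adjusted p (limma-trend) of 0.0417 to 0.308.

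Kcnn1 encodes SK1, a channel of small conductance that opens on calcium. Its FPKM was 1.23, 1.25, 1.18 and 1.64 in the controls and 0.858, 0.828 and 0.739 in the mutants. All mutants were below all controls, and the mutants differed little from each other. The log2 fold change was -0.47 (SE 0.13, interval -0.77 to -0.18, adjusted p = 0.0837), a fold of 0.720, on 82 to 216 estimated counts per sample. Its relatives Kcnn2 (SK2) and Kcnn3 (SK3) had 3.76 to 7.34 and 2.31 to 2.68 FPKM in the controls and 4.30 to 10.6 and 2.60 to 3.49 in the mutants, with mutant 3 the highest for both. Kcnma1 (the BK channel of large conductance) and Kcnt2 (Slick) overlapped between genotypes, with log2 fold changes of 0.18 and 0.25. Kcnu1, a channel known from sperm, had 0.980 to 1.49 FPKM in the controls and 0.511 to 0.982 in the mutants (log2 fold change -0.45, interval -0.84 to -0.06, adjusted p = 0.155).

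The auxiliary genes held the largest fold change of the 53 (Kcne4) and, in Kcnab2, the lowest adjusted p in the lower direction. Kcnab2 encodes Kvβ2, the cytoplasmic subunit of Kv1 channels. Its FPKM was 10.0, 10.9, 9.90 and 8.80 in the controls and 7.70, 6.72 and 8.05 in the mutants. Every mutant was below every control, and the log2 fold change was -0.38 (SE 0.10, interval -0.60 to -0.16, adjusted p = 0.0717), a fold of 0.768. It passed the threshold when samples were given equal medians (adjusted p = 0.0478), after quantile normalization (adjusted p = 0.0437) and on the normalized counts (adjusted p = 0.0477). These 3 settings also raised the lower calls over all tested genes, from 188 to 283, 281 and 266. Kcnab2 did not pass with any sample left out (limma-trend, adjusted p of 0.0784 to 0.166) or with no filter on low values (0.123). It overlaps Nphp4 on the opposite strand but shares no exonic base with it. Its paralogs Kcnab1 (1.24 to 1.54 FPKM in the controls and 1.38 to 1.85 in the mutants) and Kcnab3 (0.495 to 1.24 and 0.678 to 1.13) overlapped between genotypes.

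The Kcnip genes encode calcium-binding subunits of Kv4 channels. Kcnip3 was by far the most abundant, with 27.9, 26.0, 27.5 and 23.2 FPKM in the controls and 19.2, 20.8 and 25.3 in the mutants. Mutants 1 and 2 were below all controls and mutant 3 was inside their range (log2 fold change -0.27, interval -0.50 to -0.03, adjusted p = 0.164). Kcnip4 had 1.10, 0.877, 1.18 and 1.02 FPKM in the controls and 1.62, 1.55 and 3.92 in the mutants. All mutants were above all controls, and mutant 3, the sample highest in neuron markers, was the highest by a wide margin. The log2 fold change was 0.80 (SE 0.25, interval 0.22 to 1.38, adjusted p = 0.111) and 0.44 without mutant 3. Kcnip2 had 1.53, 4.83, 3.70 and 2.35 FPKM in the controls and 3.22, 2.47 and 6.26 in the mutants, so that its spread within a genotype was as wide as any difference between them.

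Kcne4, a membrane subunit that inhibits several Kv channels, had the widest spread of the 53 genes among the mutants on the log2(FPKM + 0.5) scale. Its FPKM was 3.14, 3.35, 1.24 and 2.49 in the controls and 9.85, 5.77 and 2.07 in the mutants. Mutants 1 and 2 were above all controls, while mutant 3 was inside the control range. Its log2 fold change was 0.92 (SE 0.44, interval -0.09 to 1.92, adjusted p = 0.242), and it was 0.46 without mutant 1 and 1.46 without mutant 3. Kcne1l, a related subunit gene on the X chromosome, had 4.67 to 6.93 FPKM in the controls and 5.69 to 10.7 in the mutants. Kcnmb4, a subunit of BK channels in neurons, had 6.22 to 9.02 and 6.73 to 9.81, and Kcnip1 2.495 to 3.35 and 2.06 to 2.96. Kcnrg, a suppressor of Kv channel assembly, was the least abundant of the 53 with a mean control FPKM of 0.457.

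The mutant samples differed from each other in which genes were highest. Of the 53 genes, 20 (37.7%) were highest in mutant 3, where 16.4% of all tested genes had their highest value. Mutant 1 held the highest value of 11 (20.8%) but of 32.7% of all tested genes, and mutant 2 of 8 (15.1%, against 7.66%). The 4 controls held the highest value of 2 to 4 genes each. The median of the 53 genes relative to the control mean was 0.26 (log2) in mutant 3, 0.09 in mutant 2 and 0.04 in mutant 1, where the median of all tested genes was 0.05, -0.0035 and 0.08. In mutant 3 the genes with the highest value came from each family and included Kcnip4, Kcnj16, Kcnn2, Kcnip2, Kcnd2 and Kcnc1. In mutant 1 they included Kcnj13, Kcnk5, Kcne4, Kcnj2, Kcnk2 and Kcnt1. The marker sums of the neuron list and of the meningeal fibroblast list were highest in the same samples, mutant 3 and mutant 1, and their part in these levels was not tested.

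**Figure D4:**
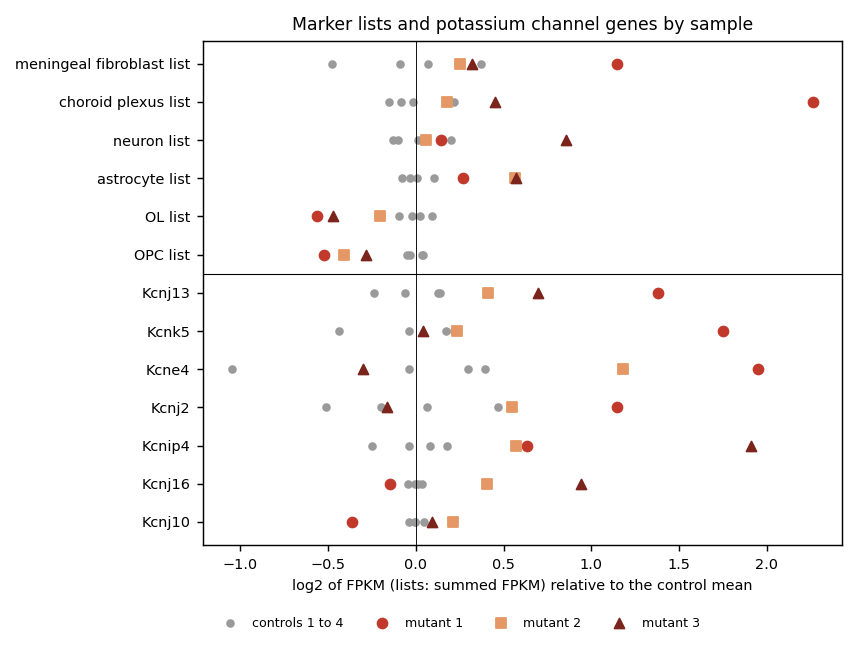
Summed FPKM of 6 marker lists (upper rows) and FPKM of 7 potassium channel genes (lower rows) in every sample, as log2 of the ratio to the control mean. Mutant 1 lies furthest right for the meningeal fibroblast and choroid plexus lists and for Kcnj13, Kcnk5, Kcne4 and Kcnj2, and mutant 3 for the neuron list and for Kcnip4 and Kcnj16.

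Other genes of potassium handling were taken from a list of 44, of which 39 passed the filter on low values. The sodium pump, which carries potassium back into cells, had 9 tested genes. Of these 6 (66.7%) lay higher at an unadjusted p under 0.05, against 15.9% of all tested genes. Atp1b2, the astrocytic beta subunit, had 476.6 to 562.7 FPKM in the controls and 609.8 to 693.1 in the mutants, with an adjusted p of 0.0559.

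Glial connexins join cells into a network for spreading potassium. Gja1 (connexin 43 of astrocytes) had 235.5, 211.5, 202.9 and 257.3 FPKM in the controls and 385.4, 335.8 and 335.7 in the mutants, and it rose with a log2 fold change of 0.64 (SE 0.10, adjusted p = 0.0214). The genotypes did not overlap for Gja1. Aqp4, the water channel of astrocyte endfeet, had 134.1 to 160.8 FPKM in the controls and 122.0 to 198.3 in the mutants. In all, 2 of 39 genes passed as higher and 1 as lower, where 175 and 188 of all 13866 tested genes did. With the replicate block 11 passed as higher and 1 as lower, against 890 and 269 of all tested genes. The adjusted p of Gja1 was up to 0.0876 when a sample was left out (without control 3), while its log2 fold change stayed at 0.57 to 0.70. Without control 3, only 2 of all tested genes passed as higher and 4 as lower, so the lost call was not particular to Gja1.

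None of the 11 genes that anchor channels along the axon or at the membrane passed the adjusted threshold. At an unadjusted p under 0.05 in either direction (limma-trend) there were 3 (27.3%), close to the 24.4% of all tested genes. Cntnap2 (Caspr2), which anchors Kv1 channels beside the node, had 1.06 to 1.77 FPKM in the controls and 1.48 to 3.55 in the mutants, with mutant 3 the highest. Cntn2, its partner in the same complex, had 17.8 to 32.8 and 12.1 to 29.6, and Lgi3 had 171.5 to 215.5 and 143.3 to 174.7. Of the 11 genes of this group, 2 (18.2%) did not overlap between genotypes, against 21.1% of all tested genes. These were Lgi1, with 6.75 to 9.10 FPKM in the controls and 9.60 to 13.7 in the mutants (log2 fold change 0.56, adjusted p = 0.0628, and 0.0432 to 0.162 over samples left out), and Dag1, with 79.95 to 104.4 and 108.9 to 137.9 (0.32, adjusted p = 0.135).

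**Figure D5:**
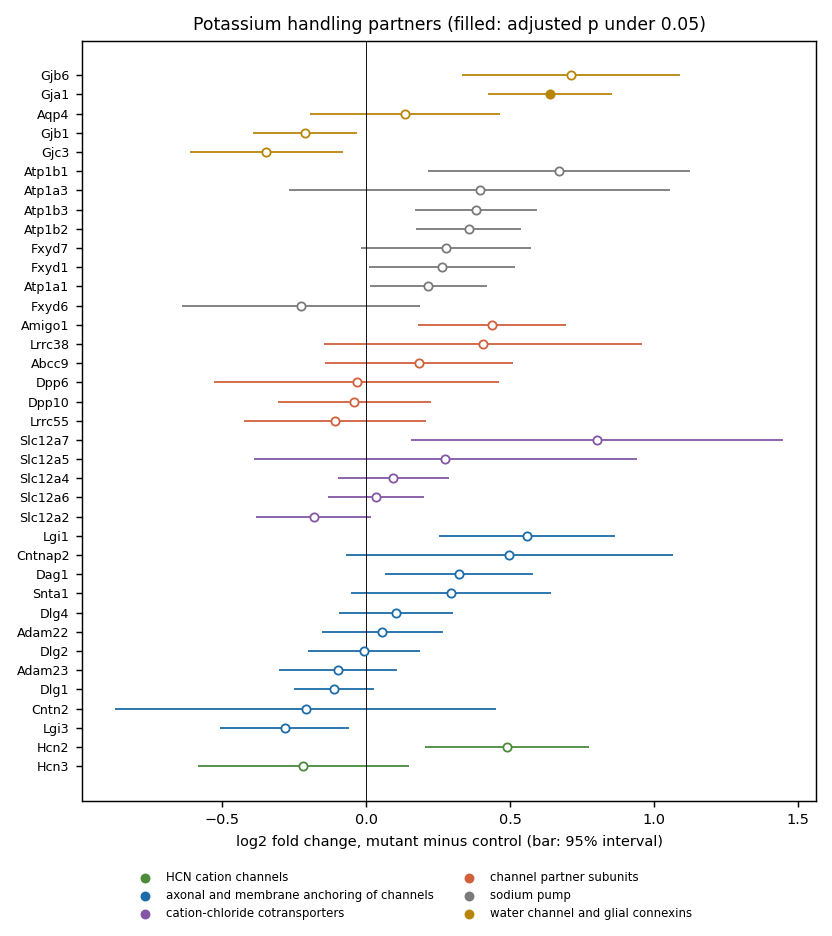
Log2 fold change (points) with its 95% interval (bars) for 37 of the 39 tested genes of potassium handling that are not potassium channels, coloured by group. A filled point passed an adjusted p of 0.05, as Gja1 (0.64) did.

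The other 41 potassium channel genes of the table did not reach the level of the rule, among them 22 Kv, 6 Kir, 6 K2P, 6 auxiliary and 1 calcium or sodium activated gene. The rule turns on the third-highest FPKM of a gene. Just inside lay Kcnrg (0.701), Kcnj9 (0.714) and Kcnk3 (0.726), and just outside lay Kcnc2 (0.488), Kcnh1 (0.472) and Kcns3 (0.461). Kcnh1, the ether-a-go-go channel, had 1.11 FPKM in mutant 3 and 0.626 in mutant 2, with the other samples under 0.5.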

How the data were processed

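The authors sequenced polyadenylated RNA (stranded kit, single end), aligned it to GRCm38 with STAR 2.5.1b, estimated counts with RSEM 1.2.22 and tested with edgeR. For 22880 genes and 7 samples they deposited FPKM values and normalized counts (a signal made by scaling the estimated count per sample). Their fold change, p-value and FDR columns were not used. No raw counts were given, so the plan for FPKM was followed. Estimated counts, also those used for voom, were worked back from the normalized counts. For this, the smallest nonzero normalized count of a sample was assumed to be the smallest step of an RSEM estimate.

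Limma-trend (limma 3.58.1, R 4.3.3) was run on log2(FPKM + 0.5), where the added constant shrinks fold changes of weakly expressed genes, with genotype as the only term. It covered 13866 genes with at least 0.5 FPKM in at least 3 samples, adjusted by Benjamini-Hochberg at a threshold of 0.05, and was tested on simulated data. The labels number the samples without saying what a number means. Samples of the same number deviated together over genes (r of 0.168, 0.409 and 0.27, against -0.353 to 0.205 for different numbers, the highest being control 4 with mutant 1), so a replicate block was fitted beside it. Alternatives changed the pseudocount, filter, scaling, values, variance model and samples, and voom and a Y-linked covariate were chosen after the data had been seen. Members and lists were chosen with earlier results of these data known. Named genes were Fasn, calls, the largest changes without overlap, the 10 highest controls, Kcnj10 and Kcnj16, the edge of the filter, the widest mutant spreads and examples per family, and Kcnh1 and the overlapping genes were added with their values known. Coding sequences were read from GRCm38 with GENCODE vM21 in Python 3.11.15. Some genes and sequences are not reported here.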

Additional observations from a re-analysis of the deposited data

Results flagged for a closer look

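Of 24 named genes, 1 had a sample far from the others of its group. Kcnn1 stood at 1.635 FPKM in control 4, above the other controls by 0.849 of the group's range, past Dixon's critical value for 4 samples. Chance alone flags about 1 in 20 groups. Without control 4 the log2 fold change of Kcnn1 was -0.40 (adjusted p = 0.138, limma-trend), against -0.47 with it. Groups of 3 mutants were not tested this way.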

How the results depend on the processing

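Of the potassium channel genes, 0 passed as higher or lower in the reported fit. As higher, 3 passed with array weights (Kcnj13, Kcnip4 and Kcnj16), 4 with the replicate block and 0 to 3 when a sample was left out, the 3 (Kcnj13, Kcnk2 and Kcnt1) without mutant 2. As lower, 1 passed with equal sample medians and 1 with quantile normalization (Kcnab2), 2 on the normalized counts and 2 with array weights (Kcnab2 and Kcnn1), and 0 when samples were left out. Genes whose genotypes do not overlap numbered 5 to 15 as higher (15 without mutant 1, 11 without mutant 2, 8 without mutant 3) and 4 to 10 as lower when a sample was left out (10 without mutant 3), and 7 as lower after quantile normalization. With fewer samples in a group, ranges separate more easily for any gene. The share over all tested genes is not given for these settings, so these counts show nothing particular to the potassium channel genes. The median log2 fold change was 0.159, 0.0764 with equal medians, 0.0521 after quantile normalization and 0.0526 to 0.231 over samples left out. Over all tested genes, 175 lay higher and 188 lower past the threshold, against 117 and 283 with equal medians, 141 and 281 after quantile normalization and 102 and 266 on normalized counts. They were 908 and 617 with array weights, 890 and 269 with the replicate block and 565 and 344 without mutant 2. Leaving out any other sample lowered both counts, to 2 and 13 without control 2, 2 and 4 without control 3 and 1 and 5 without mutant 3. Few genes of any kind could thus pass in those fits. The settings that called more potassium channel genes as higher thus called more genes of all kinds. Partners past the threshold as higher, 2 in the reported fit, were 0 with no filter, 1 on normalized counts, 0 without the trend, 8 with array weights, 11 with the replicate block, 1 with the Y-linked covariate and 0 to 6 over samples left out, and as lower they were 2 with array weights and 0 to 2 over samples left out. The sign of the log2 fold change turned with array weights for Kcna6 (0.0053) and Kcnj10 (0.0535), and it turned within the range over samples left out for Kcna1 (-0.133 to 0.225), Kcna6 (-0.0957 to 0.0545), Kcnj10 (-0.136 to 0.151) and Kcnip2 (-0.021 to 0.572). The cause was not tested. Depth limits the genes of few counts, such as Kcnj4 and Kcnrg.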
